A study of Mus musculus with 60 samples.

Results

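The genes described are 5 subunits of voltage-gated sodium channels, Scn1a, Scn3a, Scn8a, Scn2b and Scn3b, in mouse prefrontal cortex. They were chosen by name, as the rows of the deposited table whose Ensembl identifiers map to these symbols, and make up 5 of its 18088 genes. All 5 passed the filter on low values. The questions followed here are how high each gene was and how the embryonic Scn3a stood against the mature Scn1a and Scn8a across genotype and drug.

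RNA-seq was made from the prefrontal cortex of 60 C57BL/6J mice at postnatal day 25. The mice were wild type (WT) or heterozygous for the K228E allele of Tbr1 (Tbr1+/K228E, called HT), a single amino acid change in a transcription factor that marks deep-layer neurons of the cortex. The other Tbr1 copy of HT mice is wild type. Mice of each genotype and sex received vehicle, fluoxetine or lithium through their mother's milk for 3 weeks, from day 3 to day 24. All groups share this route, and none was left without it. This gives 12 groups of 5 libraries. Fluoxetine blocks serotonin reuptake, and lithium is a mood stabilizer that inhibits inositol phosphatases and GSK3.

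A voltage-gated sodium channel is a large pore-forming alpha subunit with smaller beta subunits beside it, and opens when the membrane depolarizes to start and carry the action potential. Scn3a encodes the alpha subunit Nav1.3, which is prominent in the embryonic and newborn brain and declines after birth. Scn1a (Nav1.1, prominent in parvalbumin interneurons) and Scn8a (Nav1.6, the main channel of the mature axon initial segment and nodes of Ranvier) rise after birth. The beta subunits encoded by Scn2b and Scn3b set how channels reach the surface and gate, with Scn2b linked to its alpha subunit by a disulfide bond and Scn3b held without one.

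The promoters of 3 members are shown, the only members with a promoter entry. Each run covers 250 bases before to 50 bases after a start site listed by RefSeq on GRCm38.p6, with the bases of each CpG in capitals. These start sites differ from the GENCODE gene bounds given further on, and the first of the Scn8a entries, printed here, lies inside those bounds.
Scn1a (chr2:66440788-66441087, minus strand): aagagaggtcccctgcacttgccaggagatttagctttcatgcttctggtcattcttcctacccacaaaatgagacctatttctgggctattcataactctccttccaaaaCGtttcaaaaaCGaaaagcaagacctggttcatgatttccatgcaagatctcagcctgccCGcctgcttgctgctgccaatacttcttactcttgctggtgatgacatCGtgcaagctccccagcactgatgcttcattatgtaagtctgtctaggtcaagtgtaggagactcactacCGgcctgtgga
Scn8a (chr15:100870395-100870694, plus strand): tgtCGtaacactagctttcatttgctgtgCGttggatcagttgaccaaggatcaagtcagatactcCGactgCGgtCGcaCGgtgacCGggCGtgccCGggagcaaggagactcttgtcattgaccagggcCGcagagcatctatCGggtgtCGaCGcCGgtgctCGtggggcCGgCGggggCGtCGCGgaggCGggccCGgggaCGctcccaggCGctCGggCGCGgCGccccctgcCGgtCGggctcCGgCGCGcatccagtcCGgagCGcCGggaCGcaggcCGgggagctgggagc
Scn2b (chr9:45117626-45117925, plus strand): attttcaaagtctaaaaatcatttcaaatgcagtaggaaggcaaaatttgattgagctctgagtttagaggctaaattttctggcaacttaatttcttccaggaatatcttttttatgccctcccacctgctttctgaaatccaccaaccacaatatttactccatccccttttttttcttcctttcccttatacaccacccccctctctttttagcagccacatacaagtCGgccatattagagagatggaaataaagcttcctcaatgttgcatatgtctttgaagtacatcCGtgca
The Scn8a window holds 38 CpGs at 70.0% GC (its second entry, not printed, 12 CpGs at 53.3% GC), the Scn2b window 2 CpGs at 38.3% GC and the Scn1a window 5 CpGs at 47.3% GC. The median of the 32851 promoter entries of the table is 7 CpGs and 52.7% GC. Tbr1 belongs to the T-box family, so the T-box core GGTGTGA, or TCACACC on the other strand, was searched for. It was found in none of these 3 windows or of the second Scn8a entry, and 3.98% of all promoter entries hold it. Scn3a and Scn3b have no entry.

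Totals ran from 23930164 to 36515331 reads per library. Values are reads divided by a size factor per library, called normalized reads below. Tbr1 itself ranged from 845 to 5241 normalized reads, and since K228E is a point change its level does not check the genotype labels. Libraries differed widely in genes that mark olfactory bulb, the tissue in front of prefrontal cortex: the summed level of 7 bulb markers, all above 0 in every library, ran from 96.6 to 23854. It was 5456 to 23729 in WT vehicle mice of both sexes and 219 to 2381 in WT fluoxetine mice, so these groups did not overlap in bulb markers. The drug effect differed between males and females in 39.5% of the genes tested for fluoxetine and 40.8% for lithium. Both tests use the same vehicle libraries, and they do not show which sex or treatment group set the difference. No label gives the dissection, dam, litter or batch of a mouse. The p-values therefore cover the spread among these libraries and no more, and pups of 1 litter would share their mother's treatment.

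All 5 genes were well above the filter in every library. Per kilobase of exon, Scn2b was highest at 1563 ± 318 normalized reads (SD over 60 libraries), followed by Scn8a at 726 ± 137, Scn3b at 707 ± 67, Scn1a at 348 ± 60 and Scn3a at 149 ± 27. Scn2b was above Scn8a in 60 of 60 libraries, and Scn3b was above Scn1a in 60 of 60. Scn8a and Scn3b did not separate: Scn8a was the higher in 39 of 60. Scn1a was above Scn3a in 59 of 60, the exception being WT vehicle male replicate 4. So at day 25 the embryonic subunit gene was the lowest of the 5 per length.

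**Figure D1:**
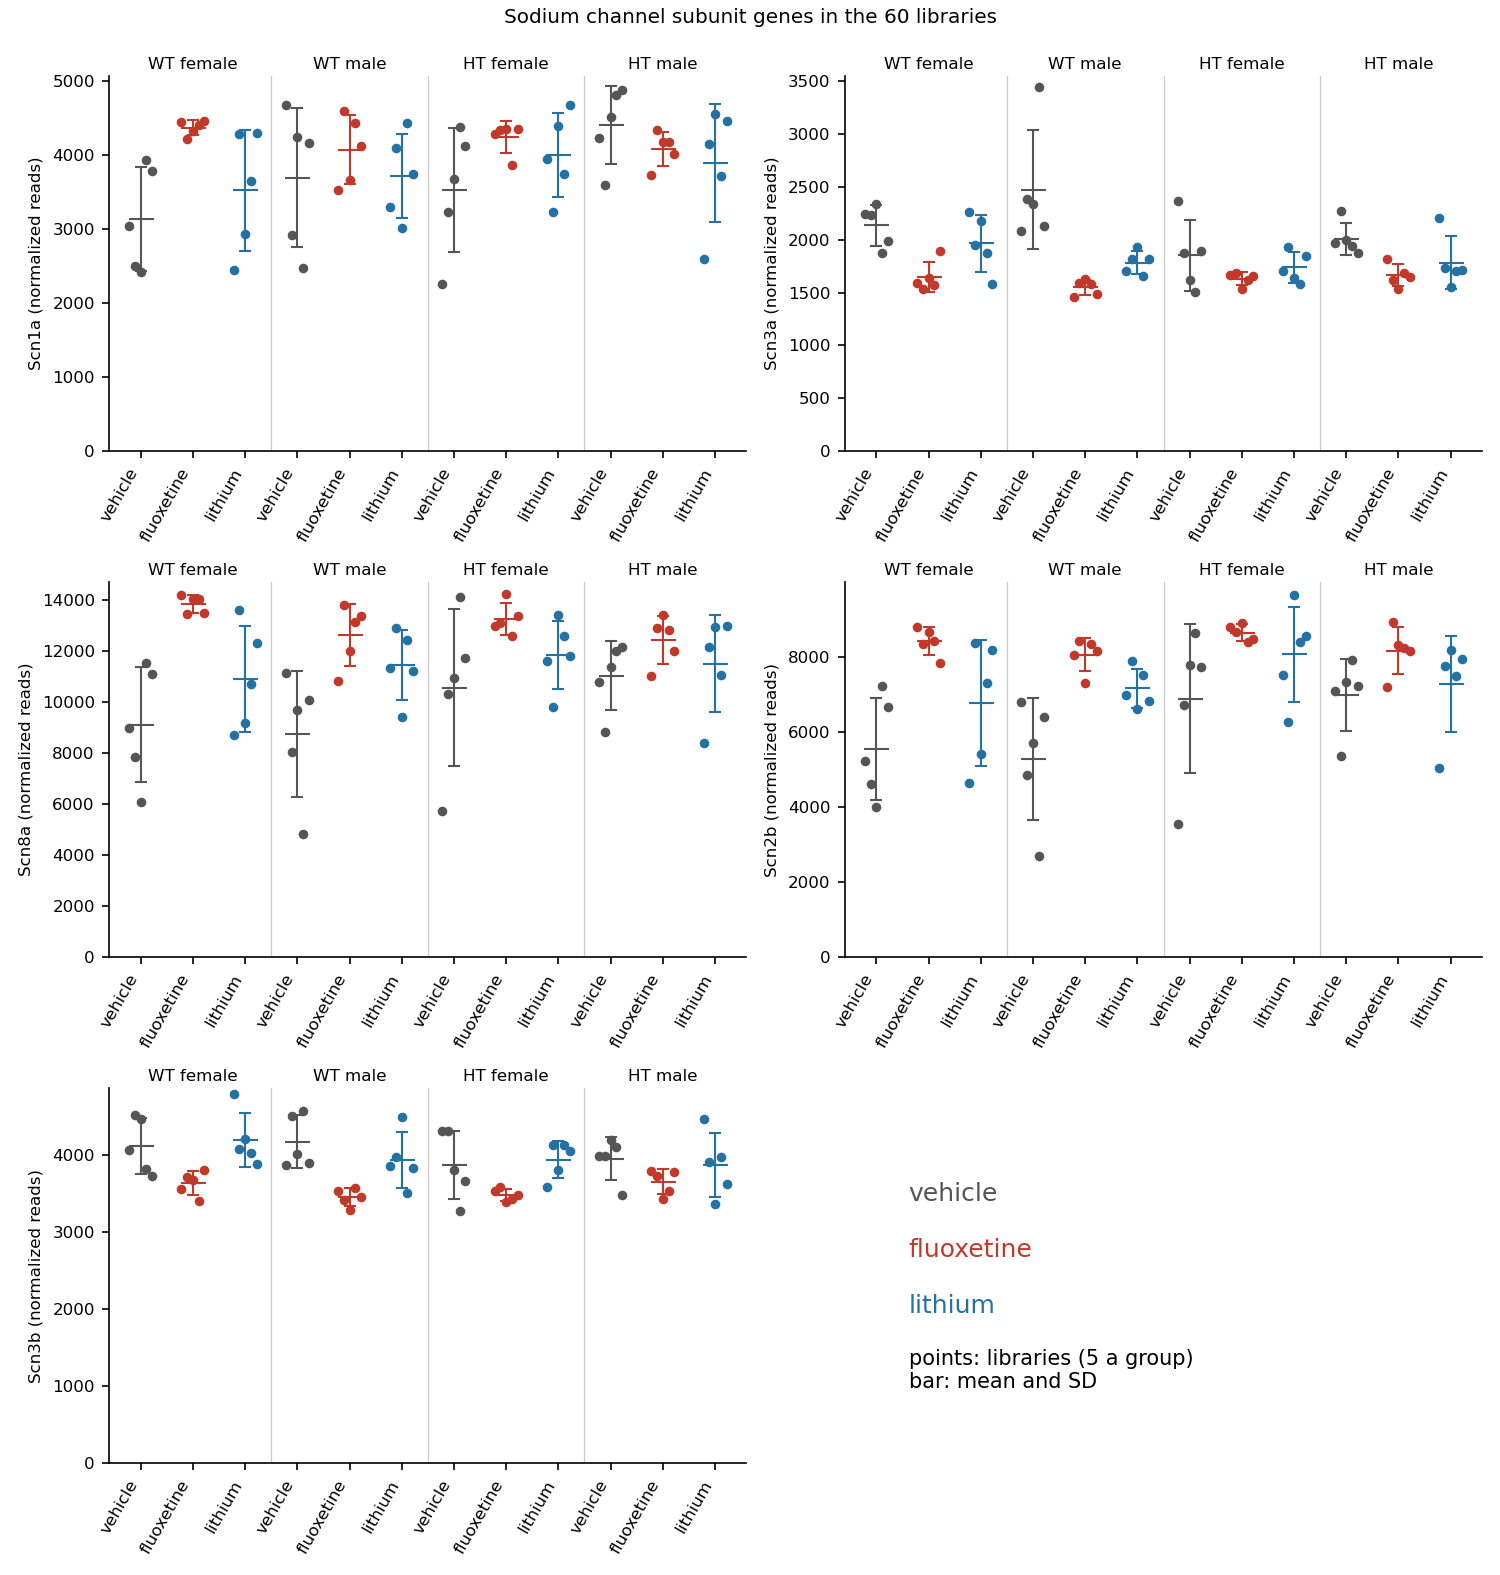
Normalized reads of each gene (vertical axes, from 0) in the 12 groups of genotype, sex and treatment (horizontal axis). Points are libraries and bars the mean ± SD of 5. Fluoxetine libraries form tight clusters, while vehicle libraries spread widely, for Scn8a from 4839 to 14102.

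The members are on 3 chromosomes of GRCm38. Scn1a (ENSMUSG00000064329) lies on chr2:66270778-66440840 and Scn3a (ENSMUSG00000057182) on chr2:65457118-65567627, both on the minus strand. Scn3a lies 3.64 Mb and Scn1a 4.46 Mb from Tbr1, on the chromosome that carries the K228E allele. Scn8a (ENSMUSG00000023033) lies on chr15:100869858-101045938, Scn2b (ENSMUSG00000070304) on chr9:45117782-45130070 and Scn3b (ENSMUSG00000049281) on chr9:40269217-40291618, all on the plus strand. The longest transcripts of the 3 alpha subunit genes each have 27 exons, that of Scn2b 4 and that of Scn3b 7.

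In WT mice fluoxetine went with less Scn3a and Scn3b and with more Scn1a, Scn8a and Scn2b. Scn3a, the embryonic alpha subunit gene, stood at 1874, 1991, 2236, 2241 and 2343 normalized reads in the 5 WT vehicle females and at 2083, 2128, 2335, 2382 and 3449 in the 5 males. Under fluoxetine it stood at 1535, 1573, 1595, 1639 and 1890 in females and at 1463, 1483, 1582, 1586 and 1631 in males. The males did not overlap, and among females 1 fluoxetine library (replicate 5, 1890) reached into the vehicle range. With the sexes averaged, Scn3a fell by 0.51 on the log2 scale (SE 0.070, adjusted p = 3.12e-08, limma), to 0.701 of vehicle.

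Scn8a, the channel of mature axon initial segments, stood at 6096, 7859, 8968, 11081 and 11536 normalized reads in WT vehicle females and at 4839, 8021, 9684, 10081 and 11139 in males. Under fluoxetine it stood at 13449, 13477, 14030, 14055 and 14213 in females and at 10812, 12016, 13136, 13385 and 13802 in males. Every fluoxetine female was above every vehicle female, and among males the lowest fluoxetine library was below the highest vehicle library. Scn8a rose by 0.61 (SE 0.118, adjusted p = 1.77e-05, limma), a 1.53-fold change.

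Scn1a stood at 2416, 2499, 3031, 3778 and 3930 normalized reads in WT vehicle females and at 4206 to 4452 under fluoxetine, with no overlap. In males it stood at 2472, 2923, 4151, 4234 and 4674 under vehicle and at 3527, 3657, 4113, 4433 and 4587 under fluoxetine, and there the ranges overlapped. Scn1a rose by 0.34 over both sexes (SE 0.113, adjusted p = 0.00782, limma). In WT males alone its change was 0.17 (adjusted p = 0.361) and in WT females alone it rose by 0.51 (adjusted p = 0.0111).

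Of the beta subunit genes, Scn2b stood at 3998, 4626, 5230, 6669 and 7211 normalized reads in WT vehicle females and at 2700, 4864, 5696, 6389 and 6796 in males. Under fluoxetine it was 7843 to 8810 in females and 7316 to 8429 in males, above every vehicle library of the same sex. Scn2b rose by 0.65 (SE 0.128, adjusted p = 2.05e-05, limma), a 1.57-fold change. Scn3b moved the other way: it ranged from 3736 to 4527 in WT vehicle females and 3872 to 4576 in males, against 3413 to 3816 and 3290 to 3581 under fluoxetine. Its ranges overlapped in females and not in males, and it fell by 0.22 (SE 0.048, adjusted p = 8.43e-05, limma), to 0.856 of vehicle.

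All 5 members were therefore called in WT mice, 3 higher and 2 lower, where 63.2% of all genes tested were called. In WT females alone all 5 were called too, beside 39.8% of all genes. How many of all genes had ranges that did not overlap was not counted, here or in the comparisons below. The separation of the members therefore cannot be set against such a share. Olfactory bulb markers moved with these changes: their mean log2 value averaged 10.15 ± 0.73 in vehicle females of the WT genotype against 5.16 ± 1.39 in fluoxetine females (SD, n = 5 each), and 9.87 ± 0.79 against 6.10 ± 1.71 in males. All 7 bulb markers and all 7 markers of immature neurons and neuroblasts fell, and 5 of 6 general neuron markers and 5 of 6 markers of cortical excitatory neurons rose. Of the other marker lists, 3 of 5 for parvalbumin interneurons rose and 1 fell, and 1 of 6 for GABAergic neurons rose and 5 fell. For striatum 4 of 11 rose and 3 fell, for astrocytes 1 of 5 rose and 4 fell, for oligodendrocytes 1 of 6 rose, for choroid plexus 4 of 6 fell and for meninges 4 of 5 fell. The part of these lists in the members' changes was tested only for bulb, and for striatum with choroid plexus, as covariates. In bulk tissue, fewer cells of a type and less RNA per cell cannot be told apart.

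With covariates for the bulb markers added to the fit, Scn3a was the only member still called in WT, at a fall of 0.29 (SE 0.084, adjusted p = 0.014, limma). Scn8a was then at 0.21 (adjusted p = 0.354), Scn2b at 0.21 (adjusted p = 0.397), Scn3b at −0.15 (adjusted p = 0.0847) and Scn1a at −0.07 (adjusted p = 0.799). The fit called 2903 of all genes in this comparison. WT vehicle and WT fluoxetine libraries did not overlap in bulb markers. The slope on the markers comes from the spread within all 12 groups and is extended across that gap. Fluoxetine and bulb content therefore cannot be told apart in WT by the bulb covariates. In WT females alone none was called with these covariates, and Scn3a was at −0.11 (adjusted p = 0.998). In WT males alone Scn3a fell by 0.46 (adjusted p = 8.56e-05) and Scn3b by 0.21 (adjusted p = 0.0113) with them. How many of all genes were called in males alone is not given here. Where the second covariate was instead the linear mean of the bulb markers, Scn3a fell by 0.16 (adjusted p = 0.0101), Scn1a fell by 0.23 (adjusted p = 0.00648), and Scn8a was at −0.00 and Scn2b at 0.01 in WT. Covariates for striatum and choroid plexus markers in place of bulb ended 4 of the 5 WT calls too, with Scn1a at −0.00 (adjusted p = 0.991), Scn8a at 0.28 (adjusted p = 0.0697), Scn2b at 0.28 (adjusted p = 0.0993) and Scn3b at −0.10 (adjusted p = 0.137). Scn3b in WT females also lost its call without fluoxetine replicate 1 or 4 or vehicle replicate 2 or 3, and Scn1a there lost its call without vehicle replicate 3, at 0.42.

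**Figure D2:**
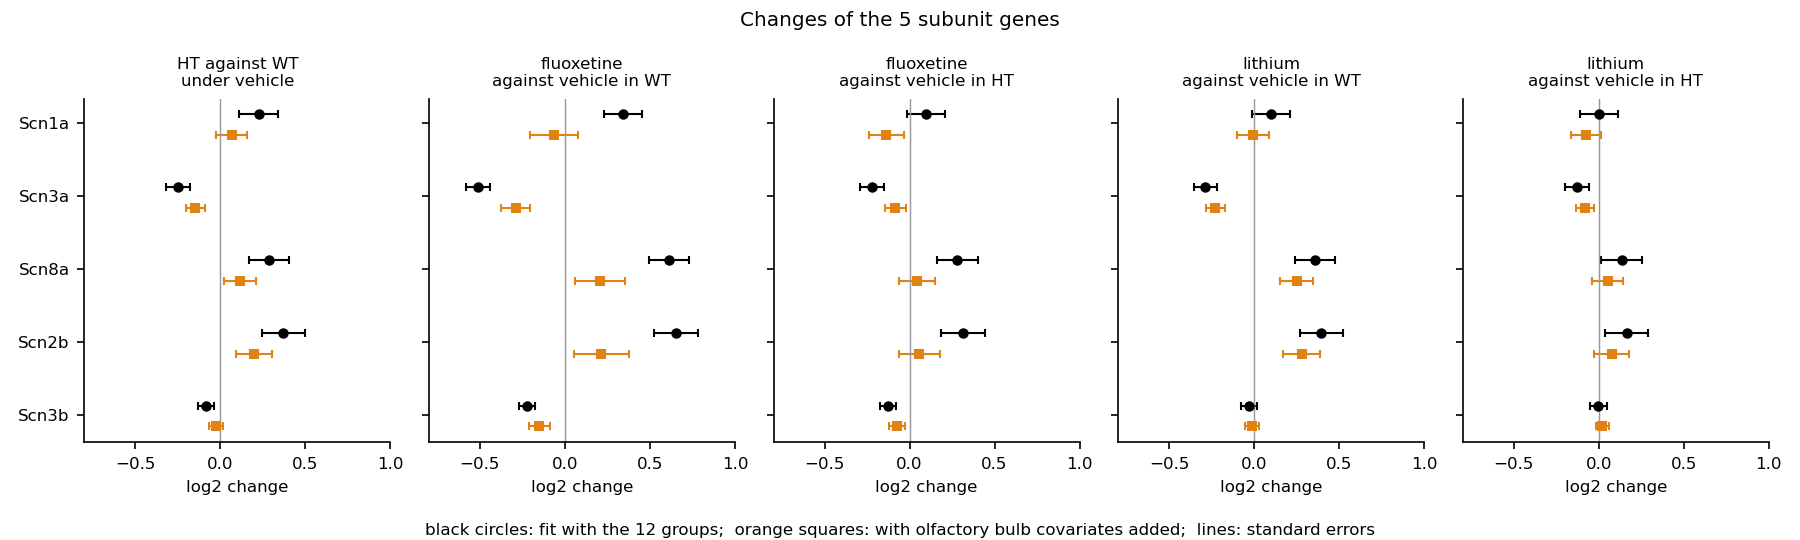
Log2 change of each gene (horizontal axes) in 5 comparisons, from the fit with the 12 groups (black circles) and with the olfactory bulb covariates added (orange squares). Lines are standard errors. In WT fluoxetine mice Scn8a and Scn2b go from 0.61 and 0.65 to 0.21 each with the covariates, and Scn3a from −0.51 to −0.29.

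With the sexes averaged, the same directions were seen in HT mice at smaller sizes. Scn3a stood at 1503, 1617, 1879, 1893 and 2365 normalized reads in HT vehicle females and at 1872, 1941, 1973, 1997 and 2269 in males. Under fluoxetine it stood at 1534, 1618, 1656, 1666 and 1683 in females and at 1537, 1621, 1652, 1689 and 1822 in males. The males did not overlap, while 1 vehicle female (1503) lay below all fluoxetine females and another (1617) within their range. Scn3a fell by 0.22 in HT (SE 0.070, adjusted p = 0.0107, limma).

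Scn3b fell by 0.13 (adjusted p = 0.0307) and Scn2b rose by 0.31 (adjusted p = 0.0449) under fluoxetine in HT mice. Scn8a was at 0.28 (adjusted p = 0.0513) and Scn1a at 0.10 (adjusted p = 0.505), the latter at 0.30 in HT females alone and −0.10 in HT males alone. So 3 of 5 members were called in HT by limma, 1 higher and 2 lower, beside 40.8% of all genes. On the recovered reads edgeR called 7263 and DESeq2 7310 of all genes, and each called 2 of the 5 members. None was called with the bulb covariates (Scn3a −0.08, adjusted p = 0.37) or with those for striatum and choroid plexus (Scn3a −0.14, adjusted p = 0.0864). These fits called 4124 and 5964 of all genes. Scn2b was not called under quantile normalization (adjusted p = 0.0864), and Scn8a was called with a filter at a mean of at least 100 (adjusted p = 0.0426), with only the groups compared (adjusted p = 0.04996) and with library quality weights (adjusted p = 0.0166). The calls were close to the threshold: Scn2b kept its call only in the fits without HT fluoxetine male replicate 1, HT vehicle female replicate 3, 4 or 5 or HT vehicle male replicate 3 or 4, and was 0.20 without HT vehicle female replicate 1. Scn8a gained a call without HT fluoxetine male replicate 1, HT vehicle female replicate 3, 4 or 5 or HT vehicle male replicate 4 or 5, and was 0.18 without HT vehicle female replicate 1. That library held Scn8a at 5711 and Scn2b at 3537 normalized reads, the lowest of the HT mice, with bulb markers at a mean log2 value of 10.95. Scn3b lost its call without HT fluoxetine male replicate 3 or 4, HT vehicle female replicate 1 or 2 or HT vehicle male replicate 3.

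In HT females alone no member was called by limma, edgeR or DESeq2, beside 0.0% of all genes by limma. At an unadjusted limma p below the threshold of 0.05 there were 3 members, beside 4063 of 17781 genes. The changes there were 0.39 for Scn8a and Scn2b, 0.30 for Scn1a, −0.17 for Scn3a and −0.14 for Scn3b. Without HT vehicle female replicate 1 they were 0.18 for Scn8a, 0.17 for Scn2b, 0.15 for Scn1a and −0.07 for Scn3a. Whether the fluoxetine effect differed between genotypes was tested directly, and no member passed by limma, beside 0.0% of all genes. The largest estimate was Scn2b at −0.34 (SE 0.181, 95% interval −0.70 to 0.02, adjusted p = 0.332). Scn3a, at 0.29 (95% interval 0.10 to 0.49, adjusted p = 0.332), was the 1 member with an unadjusted p below 0.05, beside 2628 of 17781 genes. No member was called by edgeR or DESeq2 in this test. With library quality weights in limma 4 of 5 passed, Scn3a at 0.31 (adjusted p = 0.0023), Scn2b at −0.38 (adjusted p = 0.00545), Scn8a at −0.34 (adjusted p = 0.00755) and Scn1a at −0.27 (adjusted p = 0.0461), and 5139 of all genes were called.

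Lithium went the same way in WT mice for 3 members. Scn3a stood at 1580, 1873, 1948, 2179 and 2262 normalized reads in WT lithium females and at 1655, 1706, 1814, 1818 and 1929 in males. The lithium males lay below all vehicle males, and the females overlapped. Scn3a fell by 0.29 (SE 0.070, adjusted p = 0.000946, limma). Scn8a, from 8702 to 13611 in lithium females and 9398 to 12897 in males, rose by 0.36 (SE 0.118, adjusted p = 0.0132). Scn2b, from 4647 to 8380 and 6614 to 7884, rose by 0.40 (SE 0.128, adjusted p = 0.0109). Scn1a was at 0.10 (adjusted p = 0.492) and Scn3b at −0.03 (adjusted p = 0.656).

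These 3 of 5 calls stood beside 42.7% of all genes called. Without WT vehicle male replicate 4, which held the highest Scn3a (3449) and the lowest Scn8a (4839) and Scn2b (2700) of all 60 libraries, only Scn3a was called, with Scn8a at 0.26 and Scn2b at 0.28. Bulb markers had a median change of −1.17 under lithium in WT, with 0 of 7 called, and their mean log2 value was 8.83 ± 1.28 against 10.01 ± 0.73 under vehicle (SD, n = 10 each), while 5 of 7 immature neuron markers fell. With only the groups compared in the fit, Scn8a (adjusted p = 0.0600) and Scn2b (adjusted p = 0.0553) were not called. With the bulb covariates all 3 calls held, at −0.23 for Scn3a (adjusted p = 0.00102), 0.25 for Scn8a (adjusted p = 0.0358) and 0.28 for Scn2b (adjusted p = 0.0368), beside 6494 of all genes. With the linear mean as the second covariate Scn8a was at 0.04 and Scn2b at 0.05. The members then called were Scn3a at −0.12 (adjusted p = 0.00975) and Scn1a at −0.18 (adjusted p = 0.00361), beside 6088 of all genes. In WT males alone Scn3a fell by 0.45 (adjusted p = 0.000172, limma). Scn8a rose there by 0.44 (adjusted p = 0.0277) and Scn2b by 0.50 (adjusted p = 0.0183). The share of all genes called in males alone is not given here, so these calls cannot be set against it. In WT females alone no member was called by limma, edgeR or DESeq2, beside 0.00562% of all genes by limma. None had an unadjusted limma p below 0.05, beside 2012 of 17781 genes. The largest change there was 0.29 for Scn2b (95% interval −0.08 to 0.65). It was 0.18 without WT vehicle female replicate 3, and with library quality weights it was called at 0.42 (adjusted p = 0.0152), beside 3283 of all genes.

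In HT mice no member was called under lithium by limma, edgeR or DESeq2, beside 23.2% of all genes by limma. None had an unadjusted limma p below 0.05, beside 6175 of 17781 genes. Scn2b was at 0.16 (95% interval −0.09 to 0.42), Scn8a at 0.13 (−0.10 to 0.37), Scn3a at −0.13 (−0.27 to 0.01), Scn1a at 0.00 and Scn3b at −0.00. The Scn1a value averages 0.20 in HT females and −0.20 in HT males. Without HT vehicle female replicate 1, Scn2b was at 0.05, Scn8a at 0.03 and Scn3a at −0.08. In HT females alone none was called either by any of the 3 tools, beside 0.0169% of all genes by limma. None had an unadjusted limma p below 0.05, beside 1690 of 17781 genes. Scn2b was at 0.28 there (−0.08 to 0.64) and at 0.05 without HT vehicle female replicate 1. The difference in lithium effect between genotypes passed for no member with these tools (0.0% of all genes) or unadjusted (711 of 17781 genes). Its largest estimate was −0.23 for Scn2b (95% interval −0.59 to 0.13, and −0.12 without WT vehicle male replicate 4).

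Fluoxetine and lithium share their vehicle libraries, so they were also compared with each other. In WT mice Scn3a was lower under fluoxetine by 0.23 (log2 change −0.23, SE 0.070, adjusted p = 0.0206) and Scn3b by 0.20 (−0.20, SE 0.048, adjusted p = 0.00481), 2 of 5 members beside 18.8% of all genes. Every WT fluoxetine male was below every WT lithium male in Scn3a, and every WT fluoxetine female below every WT lithium female in Scn3b. Scn1a (0.24), Scn8a (0.25) and Scn2b (0.26) had unadjusted p-values below 0.05 and did not pass. Of all 17781 genes, 6272 had an unadjusted p below 0.05. Scn3a lost its call without WT lithium female replicate 1 or 3. Neither Scn3a nor Scn3b was called with the bulb covariates, beside 105 of all genes. In HT mice limma, edgeR and DESeq2 called no member, beside 4.41% of all genes. Scn3b, at −0.13 (adjusted p = 0.116), was the 1 member with an unadjusted p below 0.05 there, beside 3797 of 17781 genes. Scn2b was at 0.15 (0.09 without HT lithium male replicate 1). Without HT lithium male replicate 3, 1 member was called.

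HT and WT mice were compared within each treatment. Under vehicle, Scn3a was lower in HT than in WT mice at −0.25 (SE 0.070, 95% interval −0.39 to −0.11, adjusted p = 0.0735), Scn2b was at 0.37 (0.11 to 0.63, adjusted p = 0.0788), Scn8a at 0.29 (0.05 to 0.52, adjusted p = 0.0958), Scn1a at 0.23 (adjusted p = 0.153) and Scn3b at −0.09 (adjusted p = 0.204). By limma 0 of 5 passed, beside 0.0337% of all genes. At an unadjusted p below 0.05 there were 3 members, beside 5912 of the 17781 genes tested. DESeq2 called 1, beside 805 of all genes, and edgeR none, beside 9. With library quality weights in limma 4 of 5 passed, among them Scn3a at −0.25 and Scn2b at 0.40 (adjusted p = 0.000197 each), beside 6987 of 17781 genes. Leaving out single libraries changed the limma count of members, and from 1 to 6275 of all genes were then called. Without HT vehicle female replicate 1, 4 members passed, with Scn2b at 0.48 and Scn3a at −0.29. Without WT vehicle female replicate 4 or WT vehicle male replicate 1, 3 passed, and without HT vehicle male replicate 2, 2 passed. Scn8a was at 0.19 without WT vehicle male replicate 4. Bulb markers differed in the same comparison by a median of −1.47 with 0 of 7 called, and with the bulb covariates Scn3a was at −0.15 (adjusted p = 0.581) and Scn2b at 0.20 (adjusted p = 0.593).

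Under fluoxetine and under lithium no member passed between HT and WT by limma, edgeR or DESeq2, beside 0.0112% and 0.00562% of all genes by limma. None had an unadjusted limma p below 0.05, beside 524 and 1489 of 17781 genes. The estimates under fluoxetine lay between −0.04 for Scn8a and 0.05 for Scn3a, whose 95% interval ran from −0.09 to 0.19. Under lithium Scn2b was farthest, at 0.14 (95% interval −0.12 to 0.40), and at 0.08 without WT lithium female replicate 1.

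The balance of the embryonic against the mature alpha subunit genes was taken per library as log2 Scn3a minus the mean of log2 Scn1a and log2 Scn8a, so a higher value means relatively more Scn3a. It is described without a test, because the genes were chosen with earlier results known. In WT vehicle mice it averaged −1.29 ± 0.48 in females and −1.18 ± 0.71 in males (SD, n = 5 each). HT vehicle mice had −1.69 ± 0.67 and −1.79 ± 0.29. Under fluoxetine it was −2.24 ± 0.12 and −2.20 ± 0.14 in WT females and males and −2.20 ± 0.10 and −2.10 ± 0.18 in HT. With lithium the values were −1.64 ± 0.49 and −1.86 ± 0.26 for WT, and −1.98 ± 0.26 and −1.89 ± 0.48 in HT. So the balance was highest in WT vehicle mice, lowest and least variable under fluoxetine, and between them under lithium.

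In WT mice every fluoxetine library had a lower balance than every vehicle library of its sex; in HT mice the ranges overlapped in both sexes. Averaged over sexes, the balance differed between fluoxetine and vehicle by −0.99 in WT and −0.41 in HT, and between lithium and vehicle by −0.51 and −0.20. The lithium difference in HT was −0.060 without HT vehicle female replicate 1 and −0.30 without HT lithium male replicate 1. HT minus WT was −0.50 under vehicle, −0.19 under lithium and 0.08 under fluoxetine. Under lithium it was −0.11 when WT lithium female replicate 1 was left out and −0.29 when HT lithium male replicate 1 was, and under fluoxetine 0.040 without HT fluoxetine male replicate 1. With Scn8a alone as the mature reference the fluoxetine difference in WT was −1.12, and with Scn1a alone −0.85. The HT minus WT difference under vehicle was −0.36 to −0.64 as each library was left out. No fit of the balance with tissue covariates was run.

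The highest balance was that of WT vehicle male replicate 4, at −0.00, where Scn3a (3449 normalized reads) exceeded Scn1a (2472). Next came HT vehicle female replicate 1 at −0.60 and WT vehicle female replicate 3 at −0.71. Their bulb markers were the 3 highest of the 60 libraries, with mean log2 values of 11.06, 10.95 and 10.89. At the other end was a vehicle library too, HT vehicle female replicate 4, at −2.38 with bulb markers at 5.13. The balance followed the bulb markers over the 60 libraries (Pearson r = 0.805, Spearman rho = 0.932, and r = 0.807 without the 2 libraries farthest from the median of the markers), also as deviations from the group means (r = 0.691). It ran against the general neuron markers (r = −0.957, and −0.976 as deviations from the group means). The same 2 measures were −0.928 and −0.933 for cortical excitatory neuron markers and −0.869 and −0.883 for parvalbumin interneuron markers. For immature neuron markers they were 0.887 and 0.804. For striatum markers the measures differed in sign (Pearson r = −0.07, −0.21 as deviations, Spearman rho = 0.302). In the 29 libraries with bulb markers below a mean log2 value of 8, a limit chosen after the data were seen, the balance stayed between −2.38 and −1.97. Of these, 19 had received fluoxetine, 7 lithium and 3 vehicle.

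**Figure D3:**
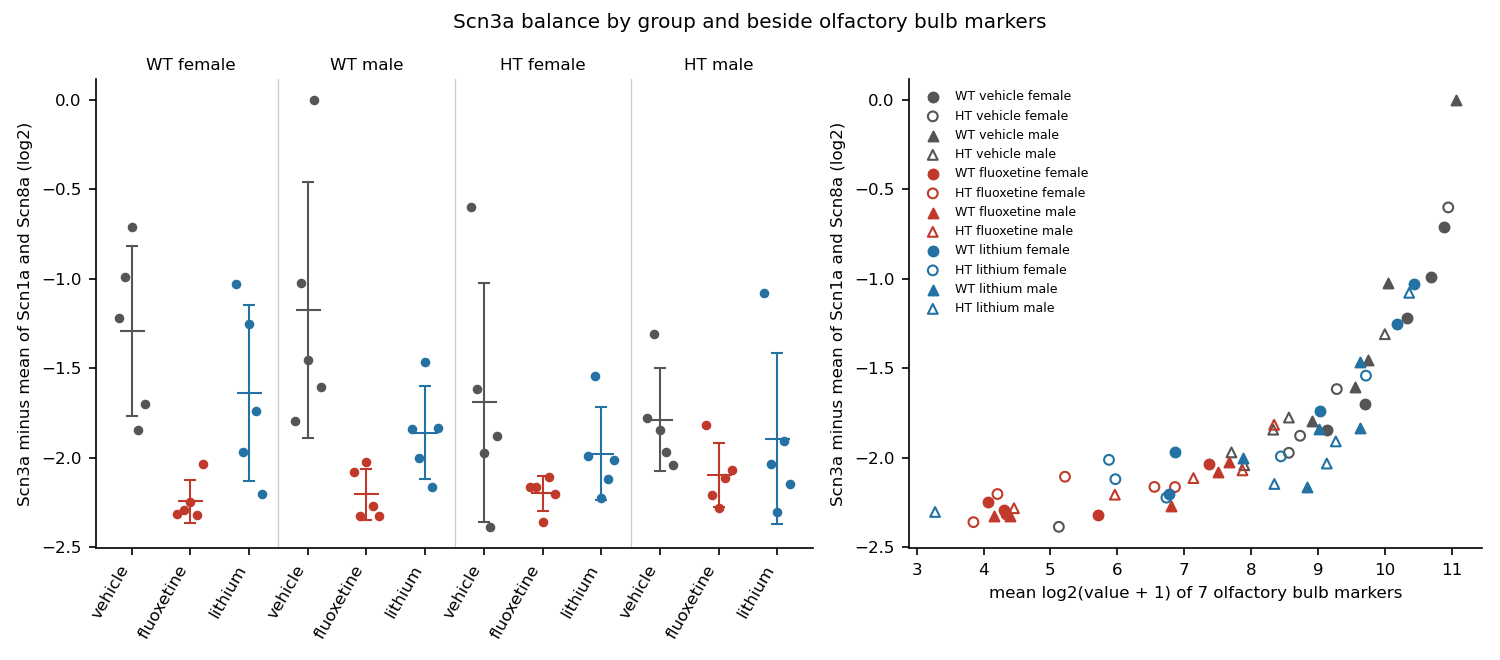
Left, the balance (log2 Scn3a minus the mean of log2 Scn1a and log2 Scn8a) by group, with points as libraries and bars as mean ± SD of 5. Right, the same balance against the mean log2 value of 7 olfactory bulb markers, with colours for treatment, circles for females, triangles for males and filled marks for WT. The balance tends to be higher where bulb markers are higher, with scatter at a given marker level, from about the level of the fluoxetine mice (mean −2.19) to −0.00 in WT vehicle male replicate 4.

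The members moved with and against each other within groups too. As deviations from group means over the 60 libraries, Scn8a and Scn2b went together (r = 0.96), as did Scn1a and Scn8a (r = 0.92), while Scn3a ran against Scn2b (r = −0.88) and Scn8a (r = −0.84). Scn3b went with Scn3a (r = 0.70) and against Scn1a (r = −0.76). So within groups libraries with more Scn3a tended to have more Scn3b and less of the other 3.

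Scn1a and Scn8a parted in 1 set of libraries. The ratio of Scn1a to Scn8a was 0.429 ± 0.053 in WT vehicle males and 0.399 ± 0.0058 in HT vehicle males (SD, n = 5 each), and 0.315 to 0.347 as group means in the other 10 groups. Over the 10 vehicle males it ran from 0.364 to 0.511 and over the other 50 libraries from 0.281 to 0.396. These libraries were singled out after their values were seen, so no test is given. Vehicle males at a given Scn8a therefore tended to have more Scn1a than other mice, though the ratios overlapped. They are defined by sex and treatment together, and the labels name no batch, so what goes with the ratio cannot be told apart. The test of the sex difference in the fluoxetine effect gave Scn1a −0.37 (males minus females, SE 0.160, adjusted p = 0.0609), and for lithium Scn1a was at −0.26 (adjusted p = 0.189) and Scn3a at −0.21 (SE 0.099, adjusted p = 0.0795). By limma, edgeR and DESeq2 none of the 5 members was called in either test, beside 39.5% of all genes for fluoxetine and 40.8% for lithium by limma. At an unadjusted limma p below 0.05 there was 1 member in each, beside 8255 and 8459 of 17781 genes. With the bulb covariates Scn3a passed both, at −0.30 for fluoxetine (adjusted p = 0.00103) and −0.30 for lithium (adjusted p = 0.00144), and Scn3b passed for lithium at −0.17 (adjusted p = 0.0138). That fit called 7855 of 17781 genes for fluoxetine and 7993 for lithium. Scn1a passed for fluoxetine without HT vehicle female replicate 4 or 5, HT vehicle male replicate 2, WT vehicle female replicate 4 or 5 or WT vehicle male replicate 2 or 4, and 1 member passed without HT vehicle female replicate 1. For lithium 1 member passed without HT lithium male replicate 1, HT vehicle female replicate 1, WT lithium female replicate 5 or WT vehicle male replicate 1. As each library was left out, 6729 to 7373 of all genes were called for fluoxetine and 6961 to 7504 for lithium.

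**Figure D4:**
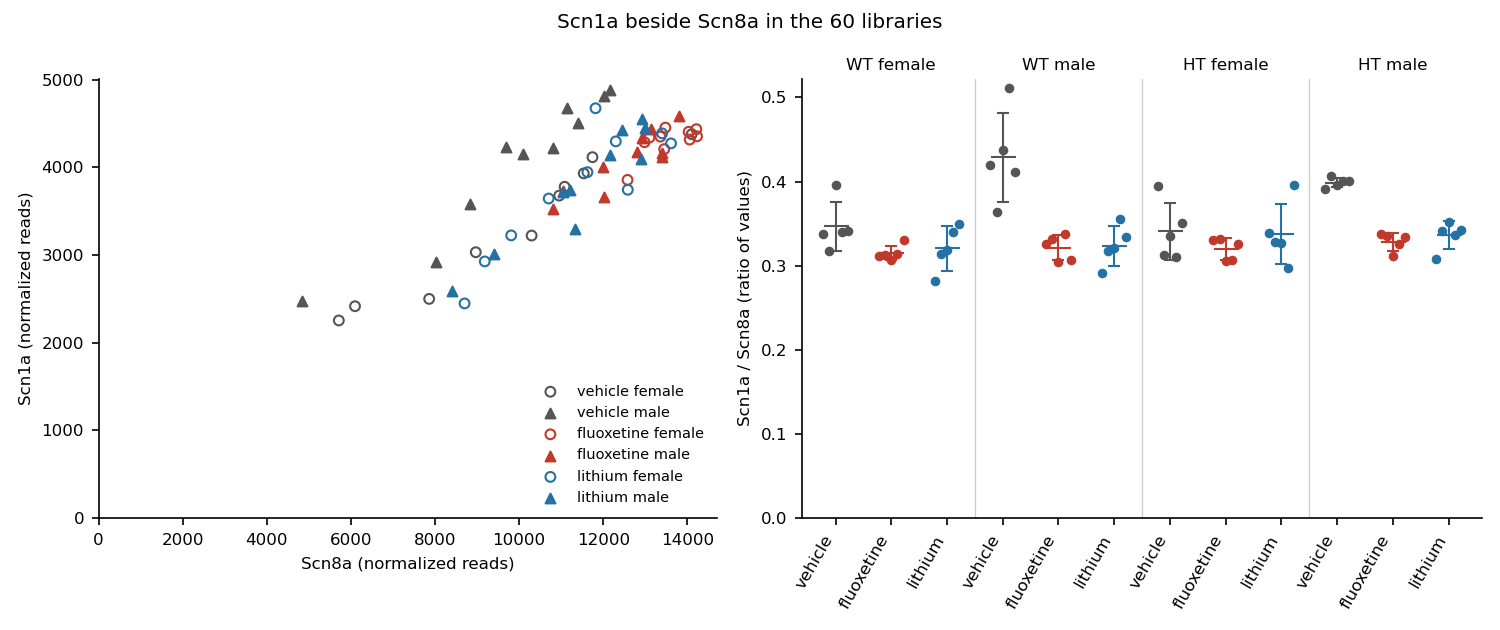
Left, Scn1a against Scn8a in normalized reads (both axes from 0), with filled triangles for males, open circles for females and colours for treatment. Right, the ratio of the 2 values by group, with points as libraries and bars as mean ± SD of 5. Vehicle males tend to lie above the other libraries at the same Scn8a, with group mean ratios of 0.429 and 0.399. HT lithium female replicate 5, at a ratio of 0.395, lies among them.

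The genes most like each member were looked for over the 60 libraries, as deviations from group means, among 12826 genes. For Scn8a they were Prkcb (r = 0.987), a protein kinase C, with Mrtfb, Kif1b, Cyfip2 and Magi2 (r = 0.985 to 0.986). For Scn2b they were Thy1 (r = 0.989), a surface glycoprotein of projection neurons, with Tppp, Pde1a, Kif5c and Arhgap44 (0.985 to 0.986). For Scn1a they included Kcna2 (r = 0.961), an axonal potassium channel, with Lynx1, Syt1 and Klc2. Scn3a was closest to Eml5 (r = 0.926), then Cnot6, Lca5, Fam102b and Tnpo1 (0.917 to 0.919). Scn3b had no neighbour as near: AW551984 led at r = 0.848, and Otogl, Cpne6, Glce and Samd14 stood at 0.793 to 0.800. These points share libraries, depth and the spread in bulb markers.

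Among 11 partners of sodium channels, 7 rose and 2 fell under fluoxetine in WT mice, with a median of 0.40 against −0.01 over all genes and 63.2% of all genes called. All 7 bulb markers fell in the same comparison. Scn4b, another beta subunit gene that is high in striatum, rose by 1.99 (adjusted p = 0.000559), the intracellular FGFs Fgf14 by 0.47 and Fgf13 by 0.41, and the ubiquitin ligase Nedd4l, which removes channels from the surface, by 0.45. All 3 calmodulin genes rose, by 0.37 to 0.46. Fgf12 fell by 0.35 (adjusted p = 1.91e-08), opposite to its relatives Fgf13 and Fgf14, and Nedd4 fell by 0.19. In HT mice 1 of 11 rose (Calm3, 0.25) and 2 fell (Fgf12 by 0.25, Nedd4 by 0.14), a smaller share than the 40.8% of all genes called. Under lithium in WT 3 rose and 3 fell, beside 42.7% of all genes called, with Fgf12 down by 0.36 (adjusted p = 5.87e-08) and Scn4b up by 1.43 (adjusted p = 0.0182), and in HT only Fgf12, which fell by 0.22, and Camk2d, which fell by 0.14, passed, beside 23.2% of all genes. HT against WT under vehicle gave no call in this list, with Scn4b at 1.26 (adjusted p = 0.0897).

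Of 12 genes of the scaffold that holds these channels at the axon initial segment and node, 10 rose and none fell under fluoxetine in WT, with a median of 0.28, beside 63.2% of all genes called in either direction. In that comparison 7 of 7 bulb markers fell and 5 of 6 general neuron markers rose. Cntnap1, the paranodal Caspr, rose by 0.70 (adjusted p = 1.58e-05), Cntn2 by 0.53, Nfasc by 0.32, Sptbn4, the βIV spectrin of the initial segment, by 0.28, and Ank3, which encodes the anchor ankyrin-G, by 0.22 (adjusted p = 0.016). Dlg2 was at 0.07 and Cntnap2 at −0.02. In HT mice 6 of 12 rose, among them Trim46 by 0.24 (adjusted p = 1.45e-06), and under lithium 6 rose in WT and 3 in HT. The shares of all genes called in either direction in these were 40.8%, 42.7% and 23.2%. Called higher alone were 3590, 3873 and 2241 of 17781 genes, against 5639 for fluoxetine in WT. The counts of 6, 6 and 3 of 12 that rose are above these shares called higher, and the reason was not tested. Sptbn4, Sptan1 and Trim46 were called higher in all 4 of these comparisons, of which those in 1 genotype share vehicle libraries.

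**Figure D5:**
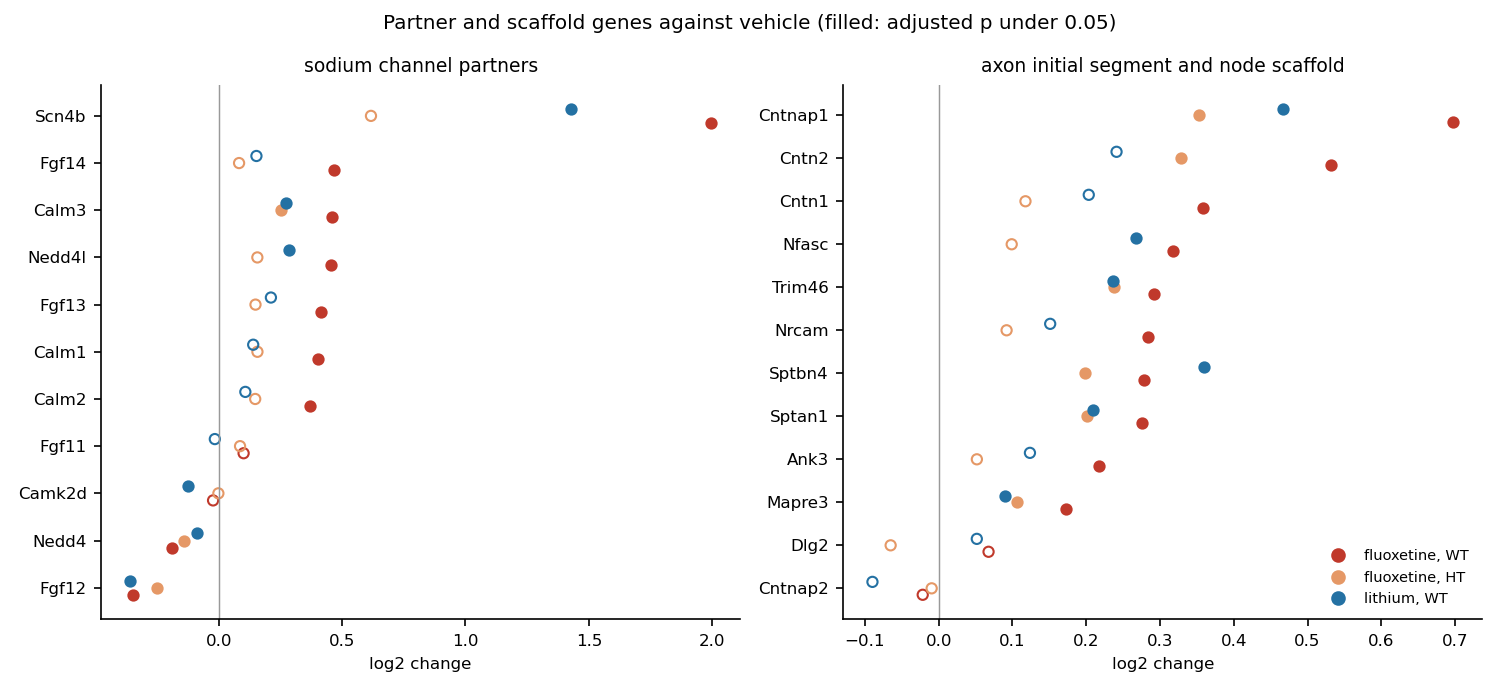
Log2 change against vehicle (horizontal axes) of 11 sodium channel partners and 12 scaffold genes, for fluoxetine in WT (red), fluoxetine in HT (orange) and lithium in WT (blue). Filled points passed an adjusted p below 0.05. Fgf12 is filled on the lower side in all 3, and Sptbn4, Sptan1 and Trim46 are filled on the higher side in all 3.

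Genes that rise or fall with postnatal age were set beside the balance. The counts stand beside 63.2% of all genes called in WT and 40.8% in HT, and that of the risers in WT is near this share. Of 6 that rise, 3 were higher and 1 lower under fluoxetine in WT: Pvalb, the calcium buffer of fast-spiking interneurons, rose by 0.76 (adjusted p = 0.00125), Grin2a by 0.37 and Kcnc2 by 0.34, and Kcnc1 fell by 0.11, while Mbp was at 0.16 and Nefh at 0.29 (median of the 6 0.32). Of 6 that fall with age, 5 were lower and 1 higher: Igfbpl1 fell by 2.24, Dcx, a microtubule protein of migrating neurons, fell by 1.82 (adjusted p = 8.56e-08), Sox4 fell by 1.39, Sox11 fell by 0.95 and Tubb2b fell by 0.47, and Stmn1 rose by 0.22 (median of the 6 −1.17). In HT, 0 of the 6 risers and 3 of the 6 fallers were called, all lower. Dcx, Sox4, Sox11 and Igfbpl1 are also markers of immature neurons, which the olfactory bulb holds in adult life, and the bulb markers fell in the same comparisons (7 of 7 in WT and 7 of 7 in HT).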

How the data were processed

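The deposited table holds 1 signal value per gene and library, with no step recorded in its header; the submitters' processing notes list Salmon 0.11.2, R 3.6.0, DESeq2 1.19.11 and GRCm38, without role or order. Per the labels' protocols the kit was a stranded one for mRNA, and whether strand was used in counting is not given in the sources used here. All values (100%, tolerance 1e-06) were whole multiples of 1 number per column, and were therefore read as whole reads divided by a size factor per library. These factors ran from 0.818 to 1.33, and totals had a median of 28721151 reads.

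Because the values were normalized and not counts, log2(value + 1) was fitted with limma 3.58.1 (R 4.3.3, mean-variance trend, 1 mean per group, all 60 libraries), the test set for normalized values in place of the count test. The filter asked for a value of 10 in 5 libraries and passed 17781 of 18088 genes. Tests are two-sided, with p-values adjusted by Benjamini-Hochberg over all genes tested and called below 0.05. Changes are given as log2(value + 1), a scale that shrinks those of low genes. Alternatives on recovered reads used edgeR 4.0.16 and, separately, DESeq2 1.42.0, and the rest were pseudocounts of 0.5 and 5, other filters, quantile normalization, library quality weights, a replicate block, tissue covariates and leaving out each library. The bulb covariates were the mean log2 value of the bulb markers and log2 of their mean linear value. A version with that mean not logged and the tests in males alone were added after the data were seen. Named genes are the 5 members, 3 lists of partner, scaffold and maturation genes, marker lists of cell types and neighbouring tissues (Kcne2 was not analysed), and the 5 genes most correlated with each member among genes with a mean of at least 50, of which 1 is not reported here. The members and lists were chosen with earlier results of these data known. The fit was checked on simulated data.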

Additional observations from a re-analysis of the deposited data

Results flagged for a closer look

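Each gene and the balance were looked at in each of the 12 groups for a library set apart from the other 4, which gave 72 sets of 5 libraries, and 5 sets had one. Chance gives about 1 in 20 sets. Scn3a was highest in WT vehicle male replicate 4, at 3449 normalized reads, and in HT lithium male replicate 1, at 2207. In the latter library Scn2b was also set apart, as the lowest of its group at 5034 normalized reads, with bulb markers at a mean log2 value of 10.36. The balance was highest in WT fluoxetine female replicate 5, at −2.03, with bulb markers at 7.37, the highest of that group. Scn1a was lowest in HT fluoxetine female replicate 4, at 3856 normalized reads, and bulb markers there, at 5.22, were the median of that group.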

How the results depend on the processing

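Other pseudocounts, no filter and no variance trend changed no call of a member. The balance kept its direction in every alternative run for it. These were other pseudocounts, quantile normalization, Scn1a or Scn8a alone as the reference and leaving out each library. No tissue covariates were fitted to the balance. With the linear mean as the second bulb covariate, HT against WT under vehicle gave Scn3a −0.06, Scn1a −0.09 and Scn8a −0.06. In the fit with the 12 groups these were −0.25, 0.23 and 0.29. Below, estimates are log2 changes that took the opposite sign to the fit with the 12 groups, and counts are members called. The cause of these changes was not tested.

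With the bulb covariates the counts were 1 for fluoxetine in WT, 0 in HT, 0 in WT females, 0 for fluoxetine against lithium in WT, 1 for sex by fluoxetine and 2 for sex by lithium. Over all 17781 genes tested they were, in that order, 2903, 4124, 0, 105, 7855 and 7993. The estimates were Scn1a −0.066 for fluoxetine in WT, Scn1a −0.14 in HT, Scn1a −0.032 and Scn3a 0.042 in HT females, Scn1a −0.0065 for lithium in WT, and Scn1a −0.076 and Scn3b 0.021 for lithium in HT. For fluoxetine against lithium they were Scn1a −0.059, Scn8a −0.045 and Scn2b −0.066 in WT and Scn2b −0.022 in HT, and for HT against WT under lithium Scn2b −0.0063.

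With the linear mean as the second bulb covariate the counts were 2 for fluoxetine in WT, 1 in HT, 0 in WT females, 1 for lithium in HT, 0 for fluoxetine against lithium in WT, 3 for sex by fluoxetine and 4 for sex by lithium. Over all genes they were, in that order, 4317, 5715, 4, 5832, 879, 9070 and 9406. The estimates for HT against WT under vehicle were Scn1a −0.089, Scn8a −0.059, Scn2b −0.0091 and Scn3b 0.015. For fluoxetine they were Scn1a −0.23 and Scn8a −0.00040 in WT and Scn1a −0.14 in HT, and for lithium Scn1a −0.18 and Scn3b 0.060 in WT and Scn1a −0.069 and Scn3b 0.026 in HT. For fluoxetine in WT females they were Scn1a −0.14, Scn3a 0.027, Scn8a −0.057, Scn2b −0.11 and Scn3b 0.048, and in HT females Scn1a −0.056, Scn3a 0.060 and Scn2b −0.0019. For lithium they were Scn2b −0.11 in WT females and Scn2b −0.0084 in HT females. For fluoxetine against lithium they were Scn1a −0.045, Scn8a −0.044 and Scn2b −0.043 in WT and Scn2b −0.037 in HT. For genotype by fluoxetine they were Scn1a 0.085, Scn8a 0.027, Scn2b 0.045 and Scn3b −0.011, and for genotype by lithium Scn2b 0.038.

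With striatum and choroid plexus covariates the counts were 1 for fluoxetine in WT, 0 in HT, 0 in WT females, 1 for lithium in HT, 0 for fluoxetine against lithium in WT, 1 for sex by fluoxetine and 1 for sex by lithium. Over all genes they were, in that order, 5878, 5964, 12, 5995, 196, 7656 and 7937. The estimates were Scn3a −0.012 for HT against WT under fluoxetine, Scn1a −0.0023 for fluoxetine in WT, Scn1a −0.038, Scn8a −0.0078 and Scn2b −0.060 for fluoxetine against lithium in WT, Scn2b −0.045 for the same in HT, and Scn1a 0.021 for genotype by fluoxetine.

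Library quality weights gave 4 members for HT against WT under vehicle, 2 for lithium in WT females, 5 for fluoxetine against lithium in WT, 1 for the same in HT, 4 for genotype by fluoxetine, 1 for sex by fluoxetine and 1 for sex by lithium, with Scn1a −0.045 and Scn3b 0.0044 for lithium in HT. Over all genes the counts were, in that order, 6987, 3283, 5625, 2921, 5139, 8905 and 8433. With only the compared groups in the fit, 1 was called for lithium in WT, 4 for fluoxetine against lithium in WT and 1 for sex by fluoxetine. Counts over all genes in these fits are not given here. In the fit with the 12 groups they were, in that order, 7585, 3351 and 7029. DESeq2 called 1 for HT against WT under vehicle, beside 805 of all genes. Quantile normalization and a mean of at least 100 each called 1 for sex by fluoxetine, and their counts over all genes are not given here. For lithium in HT the estimate was Scn1a −0.0015 with DESeq2, Scn1a −0.0073 with edgeR and Scn1a −0.023 with quantile normalization.

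As each library was left out, the counts ranged from 0 to 4 for HT against WT under vehicle, 1 to 4 for fluoxetine in HT, 3 to 5 for fluoxetine in WT females, 1 to 3 for lithium in WT, 1 to 2 for fluoxetine against lithium in WT, and 0 to 1 for the same in HT, for sex by fluoxetine and for sex by lithium. Over all genes, in that order, counts ran from 1 to 6275, 6005 to 7815, 4298 to 7883 and 6304 to 8147. The rest ran from 1804 to 4342, 500 to 1201, 6729 to 7373 and 6961 to 7504. Under lithium in HT, Scn1a ran from −0.073 to 0.073 and Scn3b from −0.030 to 0.023.

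Counts over all genes moved too. For HT against WT under vehicle, limma called 6 genes, DESeq2 805 and limma with quality weights 6987, and 1 to 6275 were called as each library was left out. For fluoxetine in WT 11239 genes were called, 2903 with the bulb covariates and 4317 with the linear mean. In WT females these were 7084, 0 and 4, and for fluoxetine against lithium in WT 3351, 105 and 879. Quality weights moved genotype by fluoxetine from 0 to 5139 genes and lithium in WT females from 1 to 3283.

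The replicate numbers gave no pairing: the mean correlation of deviations was 0.00608 between libraries of the same number (from −0.565 to 0.616) and −0.00127 between others, and 15 of 60 libraries correlated best with their own number. With these numbers as a replicate block 1 member was called for sex by fluoxetine and 4 for fluoxetine in HT, where Scn8a gained a call, and no other count of members changed. Over all genes 7045 and 7274 were called in these fits.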
